A study of Caenorhabditis elegans with 2 samples.

Results

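The regions described here are 367 of 11555 regions of the genome of Caenorhabditis elegans in a relaxed list from chromatin immunoprecipitation of tagged NPAX-4, those within 500 bp of a piRNA gene. They were chosen from the list that the authors made from both replicates together, called the joint list here. Where regions overlapped only the strongest was used, which left 11555 of 12454. A region was taken when its summit, the base of highest enrichment, lay within 500 bp of an annotated piRNA gene. Of 384 such regions, 17 were set aside because a tRNA, snoRNA, snRNA or microRNA gene lay within the same distance. The signal decided only which of several overlapping regions was used, and the rest of the rule was position.

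The protein studied, NPAX-4, has a paired domain of the kind found in Pax factors, and its binding was measured by chromatin immunoprecipitation and sequencing (ChIP-seq). Both samples, biological replicates 1 and 2 of 1 group, were late embryos of the hermaphrodite strain OP493, collected 4 h after synchronisation by egg bleaching, with age labelled unknown. The strain has the genotype unc-119(tm4063) III; wgIs493, and it stably expresses NPAX-4 with a GFP-FLAG tag at its C terminus. An antibody against GFP was used on sonicated chromatin. Whole organisms were used, so the cell types of the embryo are mixed. Both samples carry the unc-119 mutation and the transgene, and no second condition is present, so values are descriptions of these libraries and no test between conditions exists.

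In C. elegans, piRNAs are also called 21U-RNAs, after their length and their usual first base. Each is transcribed by RNA polymerase II from its own small gene, and most of these genes crowd into clusters on chromosome IV. Type I genes carry a conserved upstream motif, and their transcription in the germline needs the factors PRDE-1, SNPC-4, TOFU-4 and TOFU-5. The finished piRNA is bound by the Argonaute protein PRG-1 and guides silencing of foreign sequences in germ cells, which are few in an embryo.

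Some piRNA genes with and without an exact match to CTGTTTCA, a word from that motif, are printed here, because the regions lay beside both. Each line runs 5′ to 3′ on the gene's strand, from 60 bases before the 5′ end through the 21 bases of the piRNA, on build WBcel235 (ce11). Capitals at the right end mark the piRNA, and capitals before it mark the motif CTGTTTCA. The first 6 are the nearest piRNA genes of the 6 strongest regions whose nearest gene has the motif.
21ur-11011 (chrIV:13897608-13897688, + strand): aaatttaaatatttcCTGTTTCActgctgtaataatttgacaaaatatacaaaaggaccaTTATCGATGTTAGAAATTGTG
21ur-9274 (chrIV:4871639-4871719, - strand): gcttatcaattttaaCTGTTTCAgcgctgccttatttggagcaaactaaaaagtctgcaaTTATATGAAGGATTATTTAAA
21ur-7508 (chrIV:5593604-5593684, + strand): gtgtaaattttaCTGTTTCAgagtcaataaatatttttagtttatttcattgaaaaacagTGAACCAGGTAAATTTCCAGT
21ur-11545 (chrIV:16049244-16049324, - strand): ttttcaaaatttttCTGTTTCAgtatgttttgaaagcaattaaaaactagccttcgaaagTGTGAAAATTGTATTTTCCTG
21ur-6496 (chrIV:6576592-6576672, - strand): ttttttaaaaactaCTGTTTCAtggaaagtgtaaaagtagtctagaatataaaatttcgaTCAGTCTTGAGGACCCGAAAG
21ur-10289 (chrIV:5753768-5753848, + strand): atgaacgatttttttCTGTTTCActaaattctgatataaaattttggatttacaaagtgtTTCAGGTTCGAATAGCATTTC

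The next 5 are nearest piRNA genes from among the 6 strongest regions whose nearest gene lacks the full motif. Here capitals before the piRNA mark the shorter core TGTTTC, which was present in 2 of the 5.
21ur-10291 (chrIV:14837999-14838079, - strand): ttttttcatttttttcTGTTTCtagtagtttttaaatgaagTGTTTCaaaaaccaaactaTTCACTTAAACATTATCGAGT
21ur-11056 (chrIV:9874692-9874772, - strand): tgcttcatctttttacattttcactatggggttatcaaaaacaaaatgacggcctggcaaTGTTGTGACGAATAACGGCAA
21ur-11722 (chrIV:6602669-6602749, - strand): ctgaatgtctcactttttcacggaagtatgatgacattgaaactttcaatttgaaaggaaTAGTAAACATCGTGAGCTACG
21ur-7222 (chrIV:5563285-5563365, + strand): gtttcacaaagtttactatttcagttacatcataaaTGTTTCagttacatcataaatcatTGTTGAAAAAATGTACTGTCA
21ur-15017 (chrIV:17393262-17393342, + strand): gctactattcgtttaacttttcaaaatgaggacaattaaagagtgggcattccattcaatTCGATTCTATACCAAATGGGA

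All 11 piRNAs printed begin with T in the DNA, and in the 6 genes with the motif it ends 37 to 40 bases before the first base of the piRNA. Over all 15363 annotated piRNA genes, each 21 bases long, 96.2% begin with T. The motif CTGTTTCA, searched on the gene's strand between 80 and 20 bases before the 5′ end, was present at 5160 of them (33.6%). It was present in the same window at 0.285% of 19973 protein-coding 5′ ends. The shorter core TGTTTC was in that window at 55.8% of piRNA genes, so lacking the full word does not make a gene another type. The median number of bases between motif and 5′ end was 38, and the 5th and 95th percentiles were 36 and 41. On chromosome IV 34.8% of piRNA genes had the motif, against 6.63% on the other chromosomes.

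The strongest of the regions, near 21ur-10291, is shown as the 151 bases centred on its summit (chrIV:14838308-14838458, + strand), 44.4% of them G or C. Capitals mark the word GGTTCGA and its reverse complement TCGAACC, which overlap here. GGTTCGA is the heart of the B box, which lies within tRNA genes and helps to recruit their polymerase.
summit window near 21ur-10291: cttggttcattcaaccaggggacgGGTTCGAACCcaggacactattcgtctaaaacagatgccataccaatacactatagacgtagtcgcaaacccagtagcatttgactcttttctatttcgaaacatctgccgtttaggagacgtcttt

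The 367 regions had low signals. The signal, the value the authors' peak caller gave each region in units not stated, ranged from 28.7 to 82.0, with a median of 33.3 and quartiles of 30.7 and 37.3. The median over all 11555 regions was 34.9, with a range of 28.7 to 1202, so the median at piRNA genes was 95.3% of it. In each replicate's own list that percentage was 96.6% for replicate 1 and 97.0% for replicate 2. Of the 367 regions, 140 lay above the median of all regions (38.1%, 95% exact Clopper-Pearson interval 33.2 to 43.3%). The strongest 10.0% of all regions held 13 of the 367 (3.54%, interval 1.90 to 5.98%). They held 7.71% of the 1452 chromosome IV regions away from piRNA and other small RNA genes, whose median signal was 34.7. Away from promoters (defined below) the share of these was 4.83%, and at promoters 20.2%. For the 367 it was 3.65% away from promoters, with an interval that contains 4.83% (1.90 to 6.28%). At promoters it was 2.63%, with an interval that lies below 20.2% (0.0666 to 13.8%). Among the first 1000 regions by signal stood 10 of the 367, and the best stood at rank 307. These intervals, like all below, cover counting error only, and the depth behind the signal is unknown.

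**Figure D1:**
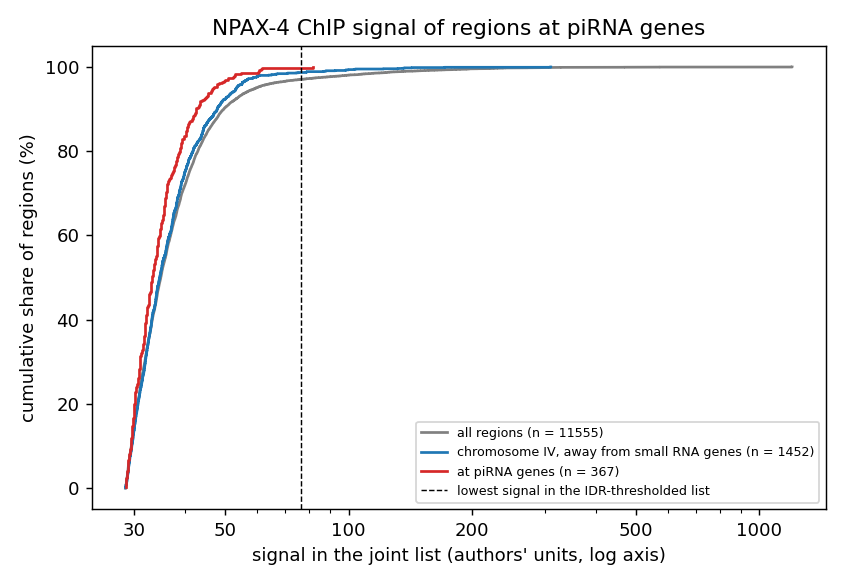
Cumulative share of regions (%) against signal in the joint list (authors' units, log axis) for the 367 regions at piRNA genes, 1452 chromosome IV regions away from small RNA genes and all 11555 regions. The curve for piRNA genes lies to the left of the others, and 1 of its regions passes the dashed line at 76.4, the lowest signal in the IDR-thresholded list.

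The authors also deposited a list cut at a limit on the irreproducible discovery rate (IDR), which compares the ranks of regions between replicates. One of the 367 regions was in that list (0.272%, interval 0.0069 to 1.51%), against a background of 2.95% of all regions. Among the 1452 chromosome IV regions away from piRNA and other small RNA genes the share was 1.31% (19 regions), which the interval contains. At promoters 15 of 272 of these were in that list (5.51%), and elsewhere 4 of 1180 (0.339%). Of the regions at piRNA genes, 1 of 329 away from promoters was in it (0.304%), and 0 of 38 at promoters (interval up to 9.25%). At microRNA genes it was 8.70% (4 of 46 regions). The relaxed joint list is described by the authors as holding peaks and background as input for IDR, so a place in it alone does not mark a reproducible peak. The median −log10 q value that the authors' caller gave was 0.0429 at piRNA genes, with a maximum of 1.31, and 0.0598 over all regions, with a maximum of 1.35.

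Replicate 1 had a region overlapping 253 of the 367 (68.9%), where 75.3% of all regions had one. Replicate 2 had a region overlapping 224 (61.0%), where 69.1% of all regions had one. Both replicates had one for 123 (33.5%, interval 28.7 to 38.6%), where 46.9% of all regions and 45.3% of chromosome IV regions away from small RNA genes had one. The interval for the regions at piRNA genes lies below both of these shares. Replicate 1 alone held 130 of the others, replicate 2 alone 101, and 13 overlapped a region of neither replicate. The median joint signal was 38.3 for the 123 and 32 for the rest.

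Among the 123 regions found in both replicates, the signal of replicate 1 said little of the signal of replicate 2. Spearman's rho across these regions was 0.107, and Pearson's r of the log2 signal was 0.195. Over all 5424 regions found in both replicates the values were 0.271 and 0.649, and over the 658 of chromosome IV away from small RNA genes 0.186 and 0.451. Regions share the libraries and the control and are not independent replicates. The range of signal at piRNA genes was also narrower, from 15.5 to 38.9 in replicate 1 and from 13.6 to 46.8 in replicate 2.

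**Figure D2:**
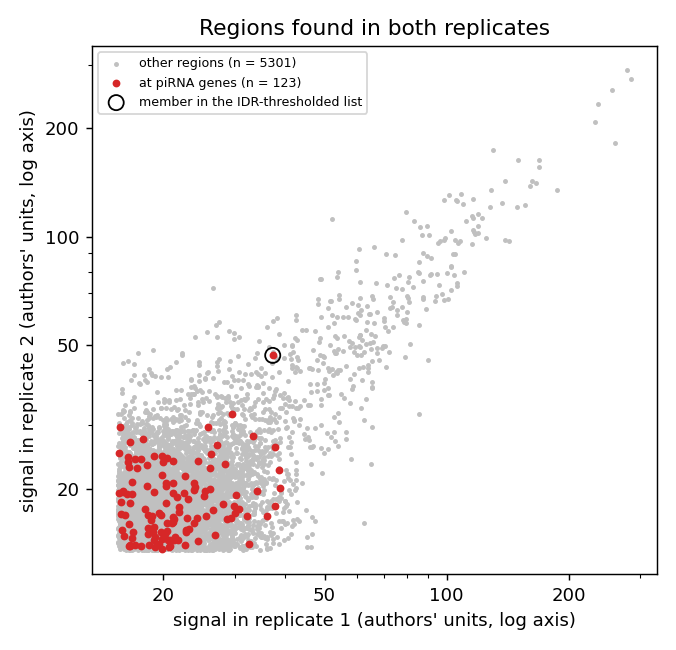
Signal in replicate 2 against signal in replicate 1 (authors' units, both axes log) for regions found in both, with the 123 at piRNA genes in red and the other regions in grey. The red points sit in the low corner of the cloud, and the circled region in the IDR-thresholded list has signals of 37.3 and 46.8.

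The region near 21ur-10291 (chrIV:14838158-14838607) was the one in the IDR-thresholded list. Its signal was 82.0 in the joint list, 37.3 in replicate 1 at rank 488 and 46.8 in replicate 2 at rank 260, so it was high in both. Its summit lay in an intron of the protein-coding gene Y57G11C.22, 364 bp upstream of the 5′ end of 21ur-10291, inside a piRNA-dense stretch. Its window holds the B box word printed above. That word, on either strand and within 75 bp of the summit, was found in 2 of the 367 regions (0.545%, interval 0.0661 to 1.95%). It was found in 1.26% of the 11055 regions over 500 bp from tRNA, snoRNA, snRNA and microRNA genes. No tRNA gene is annotated within 500 bp of that summit by the rule that chose the regions, and RefSeq lists only Y57G11C.22, 21ur-5629 and 21ur-10291 there. The other region with the word, near 21ur-15004, had a signal of 28.8 and no region in replicate 1. This word was looked up after the window had been seen.

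The next 4 strongest regions had signals of 60.2 to 61.7 and none was in the IDR-thresholded list. The region near 21ur-11056, in intergenic sequence 5093 bp upstream of the nuclear hormone receptor gene nhr-4, had a signal of 61.7, with 37.7 in replicate 1 and 26.0 in replicate 2. The region near 21ur-11722, in an intron of F15B10.3, had 61.2, with 29.6 and 32.3. The region near 21ur-14806 lay on chromosome II in an intron of T24B8.3 and had 60.6, with 33.4 and 28.0. Each was thus listed in both replicates. The region near 21ur-7222 had 60.2 in the joint list, with values further apart at 38.9 in replicate 1 and 20.1 in replicate 2. T12E12.6 had the closest protein-coding 5′ end, 11069 bp away.

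The 20 strongest regions had signals of 46.6 to 82.0, and 18 lay on chromosome IV. Replicate 1 held 19 of them and replicate 2 held 20. Signals ran from 15.6 to 38.9 in replicate 1 and from 14.0 to 46.8 in replicate 2. By annotation, 13 summits were intergenic and 7 were in introns, and 2 were at promoters, defined as from 500 bp before to 100 bp past the 5′ end of a protein-coding gene. The nearest piRNA gene had the full motif in 4 of the 20.

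Among the rest of the 20, 2 lay in intron sequence of fkh-7, a forkhead transcription factor gene, near 21ur-6602 with a signal of 52.5 and near 21ur-7508 with 48.0. The former was at 27.1 in replicate 1 and 26.4 in replicate 2, and the latter had no region in replicate 1 and 32.6 in replicate 2. An intron of unc-44, which encodes ankyrin, held the region near 21ur-8555, with a signal of 52.3. An intron of the polarity kinase gene par-1 on chromosome V held the region near 21ur-15491, with 46.6 in the joint list, 32.5 in replicate 1 and 14.0 in replicate 2. The genes with the nearest protein-coding 5′ ends of 3 further regions encode chemoreceptor-type proteins, sru-15 near 21ur-15017 at 54.6, str-78 near 21ur-5785 at 52.9 and str-175 near 21ur-9274 at 49.2. The summits lay 3033, 3950 and 562 bp upstream of these 5′ ends, in that order. In replicates 1 and 2 the region near 21ur-15017 had 36.1 and 16.8, that near 21ur-5785 had 34.0 and 19.7, and that near 21ur-9274 had 15.6 and 29.6. These 3 differ in which replicate has the larger value. The region near 21ur-4574 had a signal of 52.9, and the nearest protein-coding 5′ end, of the DM-domain gene dmd-6, was 11831 bp away. This region was the only 1 of the 20 with TCACGC, a word from sites that paired domains recognise, in its window.

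The 2 at promoters lay near 21ur-14295 and 21ur-3683. The first, with a signal of 49.9, was 190 bp upstream of the 5′ end of ndc-80, which encodes a kinetochore protein. Its signal was 28.4 in replicate 1 and 23.5 in replicate 2. The second, with a signal of 47.1, was 296 bp upstream of Y116A8A.2 and had 21.8 and 17.3. The others lay near 21ur-11011 at 50.9, 21ur-15478 at 49.7, 21ur-5028 at 48.3, 21ur-11545 at 47.9 and 21ur-5894 at 46.7, all intergenic. In each of these the 2 replicates held a region as well.

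**Figure D3:**
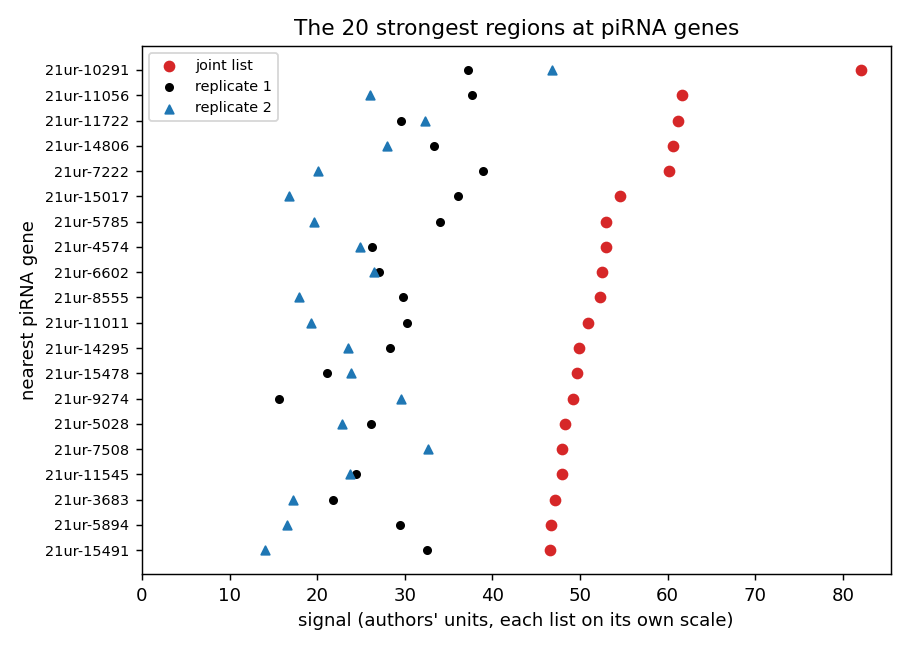
Signal in the joint list, in replicate 1 and in replicate 2 (authors' units, each list on its own scale) for the 20 strongest regions, named by their nearest piRNA gene. The region near 21ur-10291 stands apart at 82.0, and that near 21ur-7508 has no value in replicate 1.

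The median signal was about the same whatever the number of piRNA genes in reach. The list begins at a signal of 28.7 and the quartiles at piRNA genes were 30.7 and 37.3, so such medians have little room to differ. A median of 2 piRNA genes lay within 500 bp of a region, with up to 12. The median signal was 33.4 for the 146 regions with 1 piRNA gene in reach, 33.3 for the 173 with 2 to 5 and 33.2 for the 48 with more. By motif, the median was 33.2 for the 188 regions that had a piRNA gene with CTGTTTCA in reach and 33.5 for the 179 without one. Both medians lie within the quartiles of the other class. Both replicates held a region for 34.6% of the former (interval 27.8 to 41.8%) and 32.4% of the latter (interval 25.6 to 39.8%).

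Summits stood on both sides of the piRNA 5′ ends. Relative to the nearest one, on the gene's strand, the median position was -7 bases, with quartiles of -171 and 137. A summit upstream of the 5′ end was found for 190 of the 367 (51.8%, interval 46.5 to 57.0%), and 13 summits fell inside a piRNA gene. The median distance from summit to gene was 142 bp, and 137 summits lay within 100 bp. The nearest piRNA gene had the motif for 115 regions (31.3%), where 33.6% of all piRNA genes have it.

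Seen from the genes, 1039 of 15363 piRNA genes had one of the regions within 500 bp (6.76%, interval 6.37 to 7.17%). The share was 7.17% of the genes with the motif (interval 6.48 to 7.91%) and 6.56% of those without it (interval 6.08 to 7.05%). The intervals overlap. Off chromosome IV it was 61 of 649 genes (9.40%, interval 7.27 to 11.9%). Of all piRNA genes, 4 lay within 500 bp of any region in the IDR-thresholded list. The region near 21ur-10291 reached 2 of the 4, and 2 regions that were set aside for a tRNA gene reached 1 each. Neighbouring genes share regions, so genes are not independent. No piRNA gene had more than 2 of the regions, and 6 had 2, namely 21ur-15630, the overlapping trio 21ur-12455, 21ur-6614 and 21ur-5959, and the overlapping pair 21ur-13621 and 21ur-4311.

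The count of regions was below the share of the genome that the rule covers. Bases within 500 bp of a piRNA gene make up 4.80% of the 6 nuclear chromosomes, and 3.18% of the 11545 nuclear regions were there (interval 2.87 to 3.52%). Replicate 1 gave 3.51% and replicate 2 gave 3.60% from their own lists. Chromosome IV has 14714 of the piRNA genes and 309 of the regions. There 23.9% of bases were in reach and 16.9% of regions (interval 15.2 to 18.7%), with 18.2% in replicate 1 and 19.2% in replicate 2. Both replicates thus lay on the same side of the base share, and both closer to it than the joint list. Bases in reach were counted by the same rule as the regions, without those near another small RNA gene.

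The dense clusters showed the same. In the 54 bins of 100 kb that hold at least 50 piRNA genes each, all on chromosome IV and 5.4 Mb in length, 260 regions lay beside 14124 piRNA genes. They were 58.6% of the regions in those bins (interval 53.8 to 63.2%; replicates 62.6% and 61.8%), where 68.7% of bases were in reach. On the rest of chromosome IV the regions were 3.54% (interval 2.63 to 4.65%), where 3.92% of bases were in reach. In the dense bins the regions also had a lower signal than their neighbours, with a median of 33.1 against 37.1 for the 158 regions away from small RNA genes in the same bins. Those 158 were themselves high, as the median was 34.5 for the 1294 such regions of chromosome IV outside the bins. For all 309 regions at piRNA genes on chromosome IV it was also 33.1. The 2 sets differ in make-up, with 8.46% of the 260 and 25.9% of the 158 at promoters. On chromosome IV away from small RNA genes the median was 37.3 at promoters and 34.3 elsewhere. Whether this accounts for the lower signal was not tested. Outside promoters on chromosome IV, 18.4% of regions and 24.7% of bases were in reach, and at promoters 9.29% of regions and 17.2% of bases.

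On the other chromosomes the regions were 58 in number, and on each of these chromosomes the interval of their share held the share of bases in reach. With 6 to 18 regions per chromosome these intervals are wide and cannot show that the shares are equal. In the joint list each share was itself below the share of bases, and in the replicates' own lists shares lay on both sides of it. They were 18 on chromosome V, 15 on X, 11 on II, 8 on I and 6 on III. On X 0.888% of regions and 0.889% of bases were in reach, and on V 0.890% and 0.954%. On III it was 0.296% of regions (interval 0.109 to 0.644%) and 0.560% of bases, on I 0.381% (interval 0.165 to 0.750%) and 0.627%, and on II 0.585% and 0.684%. The median signal of the 58 was 34.1, against 33.1 for the 309 on chromosome IV. A gene with the motif was in reach of 6.90% of them (4 regions) and of 59.5% on chromosome IV (184 regions).

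Density on chromosome IV was lowest at the piRNA genes themselves. It was 45.8 regions per Mb inside piRNA genes (11 regions) and 50.8 at 1 to 50 bp from one (52 regions). It was 81.1 at 51 to 100 bp, 78.3 at 101 to 200 bp and 91.3 at 201 to 500 bp. Beyond the limit the density did not climb at once, with 70.5 regions per Mb at 501 to 1000 bp and 65.5 at 1001 to 2000 bp. It reached 121.7 at over 5000 bp, a class with 1158 regions.

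**Figure D4:**
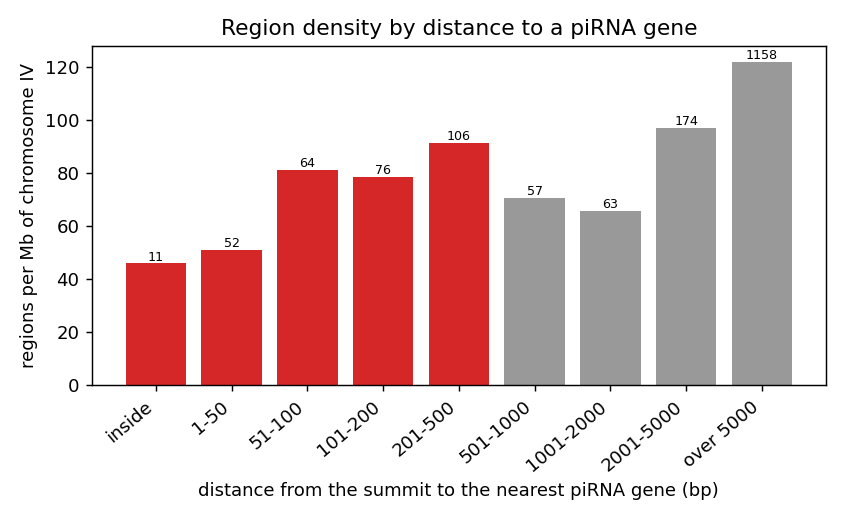
Regions per Mb of chromosome IV by distance from the summit to the nearest piRNA gene (bp), with the number of regions over each bar, red within 500 bp and grey beyond. The bars inside piRNA genes and at 1 to 50 bp, at 45.8 and 50.8, are the lowest, and the bar over 5000 bp is the highest.

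Base composition moved with this. The 75 bp on each side of the summit had 33.4% ± 6.86 (SD, n = 367 regions) GC at piRNA genes, 36.2% ± 8.02 (SD, n = 1452) on chromosome IV away from small RNA genes and 37.0% ± 8.41 (SD, n = 11555) over all regions. Of the bases of chromosome IV in reach of piRNA genes, 62.7% had a surrounding GC content under 32%, against 34.1% of the bases out of reach. Chromosome IV was therefore split by GC content, a division chosen after the data had been seen.

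The lower density at piRNA genes in the joint list was found mainly below 32% GC. Under 28% GC, chromosome IV had 44.9 regions per Mb in reach of piRNA genes and 108 out of reach, a ratio of 0.415, with 0.599 in replicate 1 and 0.521 in replicate 2. From 28% to under 32% it had 67.8 and 99.9, a ratio of 0.678, with 0.674 and 0.839. From 32% to under 36% it had 117 and 117, a ratio of 0.998, with 0.848 and 1.00. Above that the ratio was 0.883 from 36% to under 40%, with 0.758 and 0.964, and 0.921 at 40% and over, with 1.03 in each replicate. Without the split it was 0.665, with 0.721 and 0.776. The median signal at piRNA genes stayed between 33.1 and 34.0 in all 5 strata, while out of reach it ran from 33.3 to 35.6. How well reads can be placed in each stratum was not tested.

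**Figure D5:**
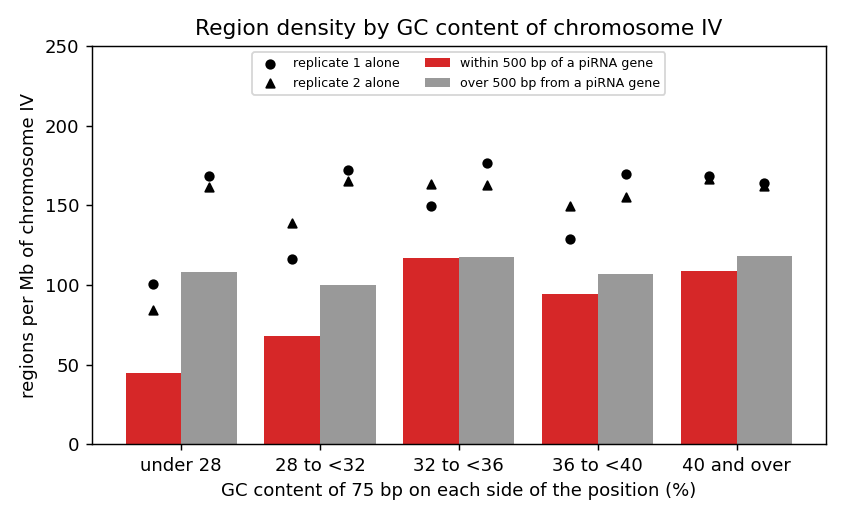
Regions per Mb of chromosome IV within 500 bp of a piRNA gene (red) and beyond (grey), by GC content of the 75 bp on each side (%), with bars for the joint list and points for each replicate's own list. The red bars are below the grey ones under 32% GC, at 44.9 against 108 and 67.8 against 99.9, and both are at 117 from 32% to under 36%. Red is also below grey from 36% to under 40%, at 94.2 against 107, and at 40% and over, at 109 against 118.

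By annotation, 196 of the 367 summits were intergenic (53.4%, against 42.3% of all regions) and 125 were in introns of protein-coding genes (34.1% against 40.6%). Another 38 were in coding exons (10.4% against 12.0%) and 8 in UTRs (2.18% against 5.06%). At promoters there were 38 (10.4%, interval 7.43 to 13.9%), against 17.0% of all regions. On chromosome IV promoters held 29 of 309 (9.39%, interval 6.38 to 13.2%), and they take up 7.58% of the bases in reach of piRNA genes and 11.5% of the others. Off chromosome IV they held 9 of 58 (15.5%, interval 7.35 to 27.4%), and there promoters take up more of the bases in reach than of the others on each chromosome, from 9.36% against 9.01% on X to 19.6% against 12.6% on II. Over all regions the median signal was 36.7 at promoters and 34.6 elsewhere. At piRNA genes it was 33.1 at promoters and 33.3 elsewhere, with no such step. TCACGC was within 75 bp of the summit, on either strand, in 9 of the 367 (2.45%, interval 1.13 to 4.60%) and in 2.95% of all regions, which the interval contains.

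The 500 bp limit cut through regions of ordinary strength. Just inside it were the regions near 21ur-8639 at 495 bp, in an intron of the calcium channel gene egl-19, near 21ur-11977 at 492 bp and near 21ur-6826 at 489 bp. Their signals were 32.0, 32.2 and 28.8. Just outside were those near 21ur-14446 at 501 bp, near 21ur-12252 at 503 bp and near 21ur-11886 at 510 bp, with signals of 28.8, 34.1 and 40.1. Their nearest protein-coding 5′ ends were those of egl-19, del-4 and C01G5.25 inside, and of Y54G2A.15, cah-3 and F13B12.1 outside.

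The 17 regions set aside for another small RNA gene were stronger. Their signals ran from 31.3 to 110 with a median of 53.5, and 12 of 17 were found in both replicates (70.6%). For 12 the nearest other small RNA gene was a tRNA gene. Their summit windows had a GC content of 42.6% ± 8.76 (SD, n = 17 regions). In the IDR-thresholded list were 2 of them (11.8%). The first, near 21ur-5229 and 15 bp from the tRNA gene WBGene00022903, had a signal of 110, with 60.8 in replicate 1 and 49.6 in replicate 2. The second, near 21ur-5344 with its summit inside the tRNA gene WBGene00014592, had 83.4, with 41.6 and 43.2. Their nearest protein-coding 5′ ends were those of K02B2.6 and Y57G11B.5.

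The protein-coding genes of the piRNA pathway were looked up as a separate list of 34, of which 32 were found in the annotation. A region with its summit within 2 kb of the 5′ end was found for 15 of 32 (46.9%, interval 29.1 to 65.3%), against 38.0% of 19973 protein-coding genes, which that interval contains. The IDR-thresholded list had 1 of 32 (3.12%), against 2.02% of protein-coding genes. Among the 6 genes for transcription of piRNA genes, prde-1 alone had a region, with a signal of 43.2 and the summit 955 bp downstream of the 5′ end in an intron. The genes snpc-4, tofu-4, tofu-5, unc-130 and attf-6 had none within 2 kb.

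Among the 9 genes for processing, 4 had a region. For tofu-1, needed to trim the 5′ end of piRNA precursors, the summit lay 175 bp upstream of the 5′ end and the signal was 54.1, with 16.8 in replicate 1 and 35.0 in replicate 2. The others were pid-1 at 40.8, pid-3 at 39.0 and tofu-2 at 32.5. The summit for pid-3 lay 1862 bp upstream of its 5′ end in a coding exon of another gene, and that for tofu-2 lay 1099 bp upstream in intergenic sequence. The genes for the trimming nuclease parn-1 and the methyltransferase henn-1 had none.

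Among the 17 effectors, 10 had a region. For simr-1, which encodes a Tudor-domain protein, the summit lay 511 bp upstream of the 5′ end. That is just outside the promoter of simr-1 as defined here, and the summit was at the promoter of another protein-coding gene. The signal was 131 at rank 133, with 63.5 in replicate 1 and 64.4 in replicate 2. This region was in the IDR-thresholded list and stood above each of the 367 regions at piRNA genes. The remaining 9 lay between 29.3 and 46.5, namely pid-2 at 46.5, the exonuclease gene mut-7 at 44.3, ekl-1 at 40.7, the Argonaute gene csr-1 at 40.3, the helicase gene drh-3 at 34.7, the scaffold gene mut-16 at 34.0, the Argonaute gene wago-1 at 32.8, the RNA polymerase gene ego-1 at 29.9 and the helicase gene glh-1 at 29.3. Some of these summits lay at or in other protein-coding genes. Those for wago-1 (636 bp upstream of its 5′ end) and csr-1 (1180 bp) were at promoters of other genes. For drh-3 (1128 bp upstream) the summit was in a coding exon of another gene, and for pid-2 (1234 bp) and glh-1 (1586 bp) in an intron of another gene. The ego-1 region is also 1 of the 367 at piRNA genes. The gene of the piRNA-binding protein itself, prg-1, had no region within 2 kb.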

How the data were processed

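Both samples are ChIP-seq libraries of 1 group, numbered as biological replicates 1 and 2 in the labels. The authors deposited relaxed lists of regions for each replicate and for both together, and a list thresholded on the irreproducible discovery rate, per the deposited file descriptions. The deposited lists give each region a signal, a −log10 q value and the offset of the summit from its start, all from the authors' peak caller. For the aligner, the caller and the IDR limit, names and versions were not given in the sources used here. The signal's scale is not stated either. Lists on ce10 were not used, and the control library was not analysed here. Depth is unknown, since no read counts are given, and a signal was compared only within a list.

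From the ce11 lists, the strongest of overlapping regions was kept, and summits were placed on the Ensembl release 115 annotation and the RefSeq genome, both WBcel235. Sequences are from the RefSeq genome, and 1 that the rule selects is not reported here. A region was matched to a replicate by an overlap of at least 1 base, and the strongest match gave its signal. Shares have 95% exact Clopper-Pearson intervals over regions. No p-values were computed, because 1 group gives no test between conditions and regions are not replicates. Base shares count each base by the rule used for summits. The shares of bases taken up by promoters, in reach or out, also include bases near another small RNA gene. The work used scipy 1.17.1, pandas 2.3.3 and numpy 2.4.6 in Python 3.11.15, with matplotlib 3.10.9 for plots, and the distance, overlap and motif steps were tested on simulated data.

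Named regions are the 20 of highest signal, those in the IDR-thresholded list, the 3 farthest inside and 3 just outside the 500 bp limit, and IDR-thresholded regions kept out for another small RNA gene. Pathway genes with a region within 2 kb are named too. The members, lists and rules were chosen with earlier results of these data known, and the split by GC content and the word GGTTCGA after the values were seen. Alternatives covered other distances, unreduced lists, each replicate alone, other motifs, windows and overlaps.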

Additional observations from a re-analysis of the deposited data

How the results depend on the processing

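Of 43 alternative values, 19 stayed within their error, 24 moved and 0 were labelled as reversed. Error was the counting interval of the main value for shares, and the SD of the 2 replicates for median signal and GC content. The IDR-thresholded list rests on both replicates, so leaving 1 out does not test the share in it. The motif share changed side of that of all piRNA genes, as given below. With a distance of 250 bp the share in the IDR-thresholded list was 0, of 274 regions, which allows a share of up to 1.09% (3 counts). The share found in both replicates was 19.9%, against 28.7% of all regions, when replicate summits had to lie within 100 bp, and 17.4%, against 28.2%, with the 12000 strongest regions of each replicate. The median signal was 94.9% of that of all regions at 250 bp, 96.2% at 1000 bp and 95.5% without reduction of overlaps, and 96.6% to 97.0% with 1 replicate left out. The share of summits at piRNA genes was 2.37% at 250 bp, where 3.65% of bases were in reach, and 4.20% at 1000 bp, where 6.22% were. It was 3.51% to 3.60% with 1 replicate left out, 16.9% on chromosome IV alone, 58.6% in its dense bins and 18.4% outside its promoters, the latter 2 chosen after seeing the data. It stayed below the share of bases in each of these. A gene with the motif was in reach of 43.8% at 250 bp, 68.7% with the core TGTTTC and 31.3% with the nearest gene alone. That last value lies below the 33.6% of all piRNA genes with the motif. The main value of 51.2%, which counts any gene in reach, lies above it. GC content was 32.5% at 250 bp, 34.1% at 1000 bp and 32.5% to 33.0% with 1 replicate left out. The promoter share was 18.3%, against 25.5% of all regions, with 1000 bp upstream. Of the pathway genes 9 (28.1%, against 24.8% of protein-coding genes) had a region within 1 kb and 25 (78.1% against 64.0%) within 5 kb. Wider or narrower limits take in more or fewer regions by construction. The cause of the other shifts was not tested. Unknown depth limits what a missing region in 1 replicate can show. No paired analysis was possible because there is only 1 group.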
